A study of Rattus norvegicus with 2 samples.

Results

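Heat shock proteins and cytosolic chaperones are described here as a set of 48 rat genes, chosen by name, with earlier results of these data known. They comprise 5 small heat shock genes, 8 of the HSP70 and HSP110 family, 2 HSP90 genes, 7 HSP40 genes, 4 mitochondrial chaperones, 7 subunits of the CCT chaperonin, 2 heat shock factors, 4 BAG and exchange factors and 9 cochaperones of HSP90 and HSP70. Through the accession printed with each array spot, 44 of the 48 were matched to a probe, among 15443 named genes with a probe. Hspa1a, Hspa1b, Dnajb1 and Hspa9 found no match and have no value here. A gene was measured where at least 1 of its probes was well above background, in either channel. This held for 44 members on the first array and 43 on the second. The member not measured on the second array was Hspb8.

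Cells came from the cortex of Sprague-Dawley rat embryos at day 14 (E14) and were grown as primary neural stem cells in N2 medium with 10 ng/mL bFGF, which supports division of these cells. Afterwards they were transiently transfected with 4 µg of a retroviral reporter plasmid expressing EGFP, either empty (the vector) or carrying rat Bcl-2, which blocks the mitochondrial route of apoptosis. Each of 2 two-colour arrays set 1 RNA sample, labelled red (Cy5), against vector cells with bFGF, labelled green (Cy3). On the withdrawal array the red sample was vector cells moved to NB medium without bFGF for 2 days, so medium and growth factor changed together. On the other array, called here the array labelled Bcl-2, it was Bcl-2 cells kept with bFGF. Transfection was transient, no source used here says which share of cells took up plasmid, and no animal numbers are given. Every comparison rests on 1 array, with no replicate and no dye swap, so no value below has a test and all describe these arrays. In bulk RNA, fewer cells of a type and less RNA per cell cannot be told apart.

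Median net signals lay between 189 and 284.5 in the 4 channels, and between 66.1% and 72.0% of spots were well above background. Of 10 neural precursor markers (a list added with the data in view), 9 had a probe and 8, among them Nes, Sox2, Vim and Pax6, were well above background in all 4 channels, while Msi1 was so in 1 channel. The probe for Bcl2, the transfected gene, gave log2 ratios of -0.02 (array labelled Bcl-2) and 0.39 (withdrawal array). Whether it lies within the sequence on the plasmid is not given in the sources used here. Which sample stood in which channel is not settled, and with it the direction of each ratio. Although both arrays carry different samples against 1 control in the same dyes, their log2 ratios ran against each other, with r = -0.67 across gene spots (-0.12 for the scanner software's ratio). All ratios are therefore given as labelled, red over green. Each count and median is given once with that sign, and turning the sign of an array turns higher into lower for every gene on it.

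Molecular chaperones bind unfolded or partly folded proteins and keep them from clumping. Small heat shock proteins hold such proteins without using ATP, HSP70 and HSP90 fold them in ATP-driven cycles steered by HSP40 proteins and other cochaperones, and the ring-shaped CCT complex folds actin and tubulin. Heat shock factor Hsf1 switches on many of these genes by binding heat shock elements, inverted repeats of the unit GAA, in their promoters. In nervous tissue, Cryab and Hspb1 are known from reactive glia, and several small heat shock genes are also abundant in muscle.

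Promoter sequence was available from RefSeq (build GRCr8) for 40 of the 48 members, in windows from 250 bases before to 50 bases after the start. Cryab, Hspb2, Hspa1b, Hsp90aa1, Dnaja2, Dnajb4, Hsf1 and St13 were without one. A pair of inverted units, GAANNTTC or TTCNNGAA, read on both strands with overlaps allowed, occurred in 19 of the 40 windows (47.5%), against 5305 of 33469 windows of that length over all genes (15.9%). The stricter form, with 3 units in alternating orientation, each 2 free bases from the next, occurred in 7 members (17.5%), Hspa8, Hsph1, Dnaja1, Hspd1, Hspe1, Cct4 and Chordc1, against 267 windows over all genes (0.798%). In Dnaja1, Cct4 and Chordc1 it is absent from the 250 bases before the start and appears only with the 50 bases after it. The 250 bases before the start are shown for 5 members with matches in capitals: Hspb1 and Bag2, whose ratios were among the most extreme, and Hspa8, Hspe1 and Hsph1, which hold the stricter form. Their positions in GRCr8 are chr12:26432302-26432551 (minus strand) for Hspb1, chr8:50080264-50080513 (plus) for Hspa8, chr9:64084077-64084326 (plus) for Hspe1, chr12:10427118-10427367 (plus) for Hsph1 and chr9:43476638-43476887 (minus) for Bag2.
Hspb1: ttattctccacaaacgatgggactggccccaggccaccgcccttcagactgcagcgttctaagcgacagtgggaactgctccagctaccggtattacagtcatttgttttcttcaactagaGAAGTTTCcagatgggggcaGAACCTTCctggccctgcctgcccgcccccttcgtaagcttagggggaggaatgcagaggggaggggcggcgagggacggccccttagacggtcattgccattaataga
Hspa8: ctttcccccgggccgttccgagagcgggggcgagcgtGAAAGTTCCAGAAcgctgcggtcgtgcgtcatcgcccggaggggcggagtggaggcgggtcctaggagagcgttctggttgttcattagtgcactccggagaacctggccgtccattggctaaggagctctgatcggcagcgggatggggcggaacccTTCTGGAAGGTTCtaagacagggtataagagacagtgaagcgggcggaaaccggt
Hspe1: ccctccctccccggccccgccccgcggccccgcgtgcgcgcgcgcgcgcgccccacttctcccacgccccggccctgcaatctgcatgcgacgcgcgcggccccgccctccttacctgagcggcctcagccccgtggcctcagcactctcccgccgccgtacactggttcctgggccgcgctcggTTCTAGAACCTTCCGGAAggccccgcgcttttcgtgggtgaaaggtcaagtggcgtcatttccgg
Hsph1: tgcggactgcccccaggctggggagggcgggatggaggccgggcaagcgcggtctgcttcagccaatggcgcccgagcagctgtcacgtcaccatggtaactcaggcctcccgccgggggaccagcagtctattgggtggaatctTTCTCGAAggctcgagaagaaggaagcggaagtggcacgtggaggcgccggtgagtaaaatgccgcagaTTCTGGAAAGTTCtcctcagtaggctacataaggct
Bag2: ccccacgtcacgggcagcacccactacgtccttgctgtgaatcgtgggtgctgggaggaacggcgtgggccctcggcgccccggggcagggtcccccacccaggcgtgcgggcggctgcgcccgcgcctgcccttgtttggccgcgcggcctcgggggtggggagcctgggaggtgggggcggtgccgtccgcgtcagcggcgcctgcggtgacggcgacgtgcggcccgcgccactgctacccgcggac
Hspb1 has 2 matches to the pair and 0 to the stricter form, and Bag2 has no match. In Hspa8 there are 4 overlapping pairs, which give 2 stricter matches. The windows of Hspe1 and Hspd1, neighbours read in opposite directions, share 211 bases, so they hold the same 3 pairs and count for both genes. Pairs occurred in 3 of 3 small heat shock windows, 3 of 7 of HSP70 and HSP110, 3 of 5 of HSP40, 3 of 4 mitochondrial, 2 of 7 CCT, 1 of 4 BAG and 4 of 8 cochaperone windows, and in 0 of 1 for HSP90 and for the heat shock factors. A match describes these letters and not binding.

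The withdrawal array sets, as labelled, vector cells after 2 days in NB medium without bFGF against vector cells with bFGF. On it, 4 of 5 small heat shock genes lay above 0 and 33 of the 39 other members below 0, few of them past a fold limit. Cryab (log2 ratio 2.24) and Hspb1 (1.22) were the 2 members at least 2-fold higher in red, and Bag2 (-1.09) the 1 member at least 2-fold lower. With the scanner software's ratio or the value table the members higher were 3, as Hspb8 joined them. Of all 10880 genes, 2.41% passed 2-fold upward in red and 0.469% downward, where a gene was counted past a fold only if all its probes had the same sign. The 2-fold counts over all genes were 262 upward and 51 downward, and 891 and 239 with the software's ratio. At 1.5-fold the members higher were again these 2 and those lower were Bag2 and Cct2, against 7.91% and 2.78% of all genes. The median over the 44 members was -0.30 on the log2 scale and 34 (77.3%) lay below 0, against a median of 0.03 and 45.7% below 0 over all genes. Without the intensity-dependent correction (loess), which moves the median of all genes from 0.03 to 0.17, the median of the members was 0.0061 and 22 lay below 0. The 1711 genes at least as bright as the median member had a median of 0.34 in that setting and 0.0068 with loess. Members dimmer than that have no such comparison, and the part of brightness in the shift of the members was not tested. With the sign of this array turned, 34 members would lie above 0, Cryab and Hspb1 would be the 2 lower members and Bag2 the 1 higher.

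The array labelled Bcl-2 sets, as labelled, Bcl-2 cells kept with bFGF against vector cells with bFGF, and its ratios ran the other way. Cryab (-2.46) was the 1 member at least 2-fold lower in red and 0 members were at least 2-fold higher, against 2.00% and 0.555% of all 10271 genes. At 1.5-fold, Cryab and Hspb1 (-0.97) were lower, and Bag2 (0.80) and Cct8 (0.67) higher, against 6.62% and 2.29% of all genes. The median over the 43 members was 0.18 and 32 (74.4%) lay above 0, against a median of -0.01 and 48.2% above 0 over all genes. Without loess the median was 0.26, and over all genes -0.07. Over all genes the 2-fold counts were 57 upward and 205 downward, and with the scanner software's ratio 358 and 702. If the sign of this array were turned, 32 members would lie below 0, Cryab and Hspb1 would be higher, and Bag2 and Cct8 lower.

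**Figure D1:**
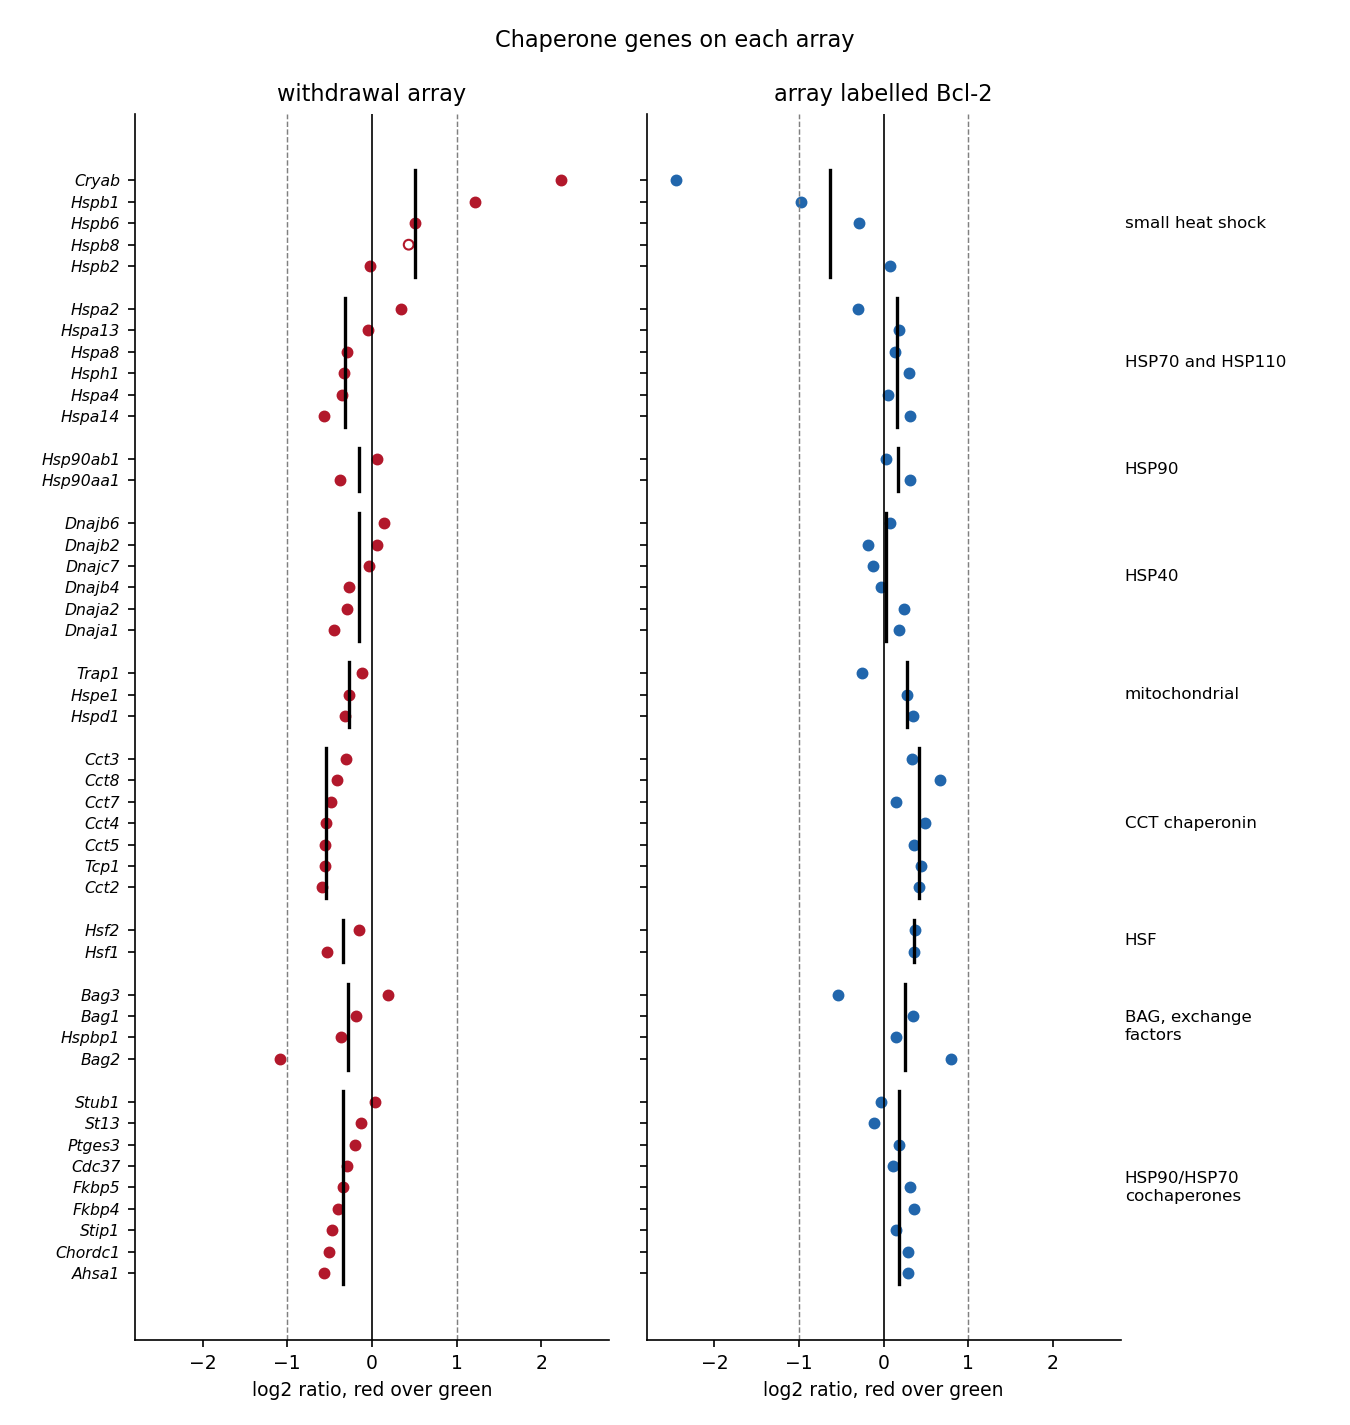
Log2 ratio of red over green (x axis) of every measured member (points) on the withdrawal array (left) and the array labelled Bcl-2 (right), grouped by family, with black bars at each family's median, dashed lines at 2-fold, and an open circle for a gene well above background in 1 channel alone. Cryab and Hspb1 stand far right on the withdrawal array and far left on the other, the 7 CCT subunits lie below 0 on the first and above 0 on the second, and without loess the withdrawal medians of HSP70, HSP90, HSP40 and mitochondrial genes move above 0, while that of all genes goes from 0.03 to 0.17.

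Small heat shock genes spread most. Cryab encodes alpha B-crystallin, a chaperone of lens, muscle and glia. On the withdrawal array its log2 level was 10.12 in green and 12.36 in red, and on the array labelled Bcl-2 it was 12.44 in green and 9.99 in red. The high channels were thus red on the first array and green on the second, although both greens are labelled vector with bFGF. The ratios correspond to 4.72-fold higher and 5.48-fold lower in red, and the deposited log2 ratios of the scanner software were 2.37 ± 0.30 and -2.62 ± 0.32 (the deposited error of 1 array, which covers spot noise and no difference between samples).

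Hspb1 encodes HSP27, which binds actin filaments as well as unfolded proteins. The withdrawal array gave log2 levels of 7.26 in green and 8.49 in red, and the other array 8.29 and 7.32. This is the order seen for Cryab, nearer to background. Its ratios were 2.33-fold higher and 1.96-fold lower in red, and the software's deposited log2 ratios, 2.01 ± 0.28 and -1.79 ± 0.28, were larger. With an offset of 10 in place of 50 in the background correction, the log2 ratios were 1.55 and -1.19.

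Hspb6 encodes HSP20, a small heat shock protein of muscle. On the withdrawal array its log2 level was 8.62 in green and 9.13 in red, and on the array labelled Bcl-2 9.06 and 8.78. Its log2 ratios of 0.51 and -0.29 had the signs of those of Cryab at a smaller size. Hspb2, the direct neighbour of Cryab in the genome, was level in all 4 channels, at 9.07 and 9.05 on the withdrawal array and 9.09 and 9.16 on the other, with log2 ratios of -0.02 and 0.07. Neighbouring genes thus differed here, and each rests on 1 probe per array. Hspb8, which works with Bag3 in clearing misfolded proteins, was well above background in a single channel, red of the withdrawal array. Red exceeded green there by at least 1.15-fold, with a log2 ratio of 0.43, which was -0.07 without loess and 1.68 with the software's ratio. That bound sets the red level of 6.82 against the higher of the green level and the lowest log2 signal well above background (6.62), after scaling of the channels, and is open to dye bias. The family's median was 0.51 on the withdrawal array (5 genes) and -0.63 on the other (4 genes). Over the other settings it ran up to 1.75 on the first array, with the value table, and from -1.09 to -0.29 on the second.

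**Figure D2:**
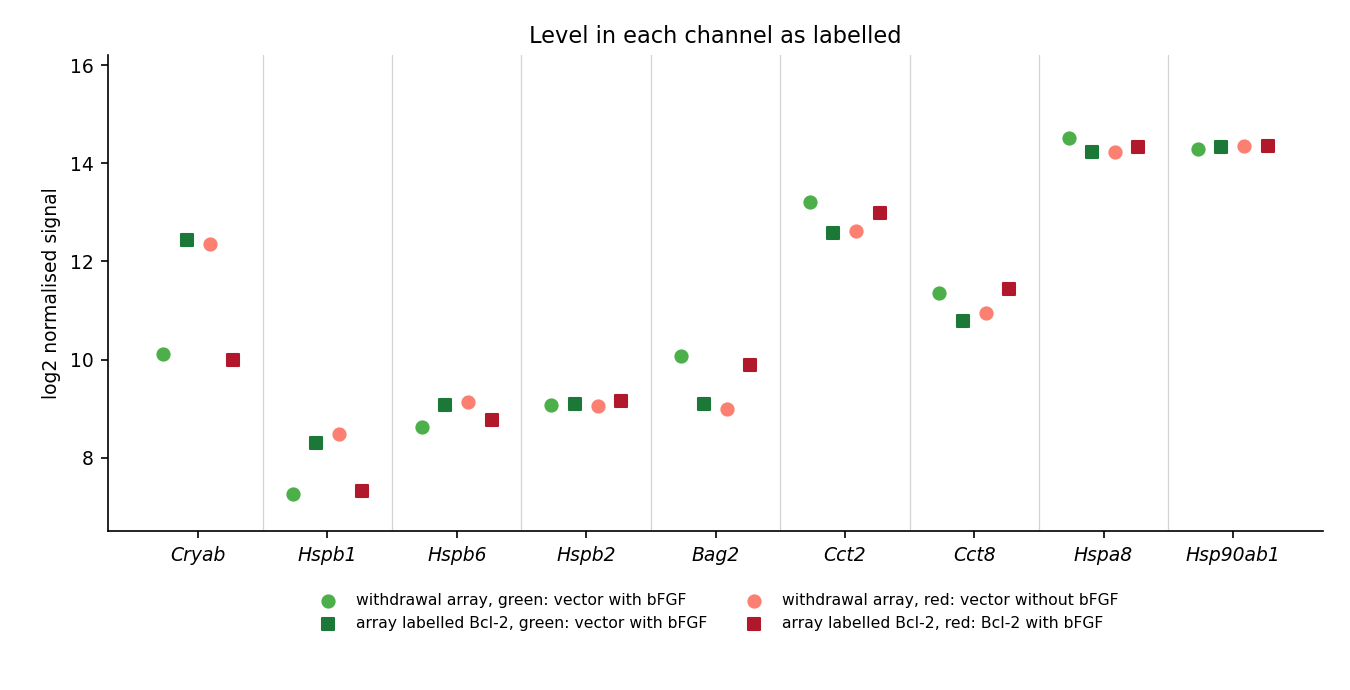
Log2 normalised signal (y axis) of 9 members in the 4 channels (colour for dye, circles for the withdrawal array, squares for the array labelled Bcl-2); each point is the value of 1 array, so there is no error bar, and brightness is not comparable between genes. For Cryab, Hspb1 and Hspb6 green of the array labelled Bcl-2 lies beside the red channel of the withdrawal array, Bag2, Cct2 and Cct8 show the opposite order, and Hspb2 and Hsp90ab1 are level.

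The HSP70 and HSP110 genes lay below 0 on the withdrawal array apart from 1, with a median of -0.31 over the 6 measured, which became 0.0051 without loess. The exception was Hspa2, an HSP70 best known from testis, at 0.34. Hspa14, a ribosome-associated HSP70, was the lowest, with a log2 level of 13.78 in green and 13.22 in red (ratio -0.56), and 13.21 and 13.52 on the array labelled Bcl-2 (0.31). Hspa8, the constitutive HSC70, was read by 4 probes, which ranged from -0.58 to -0.01 on the withdrawal array. Its median levels were 14.52 in green and 14.23 in red, then 14.23 and 14.34, so the highest channel was green of the withdrawal array. The spread between its probes exceeds its ratios of -0.29 and 0.14. Hsph1, the exchange factor HSP110, was at -0.33 and 0.30, and Hspa4, of the same kind, at -0.36 and 0.05. Hspa13, an HSP70 of the endoplasmic reticulum membrane, was at -0.05 and 0.18. On the array labelled Bcl-2 the median was 0.16, with 5 of 6 genes above 0 and Hspa2 lowest at -0.30.

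Of the HSP90 genes, the stress-inducible Hsp90aa1 lay below 0 on the withdrawal array and the constitutive Hsp90ab1 near 0. Hsp90aa1 had log2 levels of 14.45 and 14.06 in green and red of the withdrawal array and 14.12 and 14.42 on the other. Its 3 probes all lay below 0 on the first array, from -0.40 to -0.17, and above 0 on the second, with medians of -0.37 and 0.31. Hsp90ab1 was at 14.30 and 14.36, then 14.32 and 14.35, with ratios of 0.06 and 0.03. The distance between these genes exceeded the spread of the Hsp90aa1 probes on the withdrawal array but not on the other, where the probes ran from 0.02 to 0.47.

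HSP40 proteins deliver clients to HSP70. The family's median was -0.15 on the withdrawal array (0.049 without loess) and 0.03 on the other (-0.05 without loess), with 4 of 6 genes below 0 on the first and 3 on the second. Dnaja1, a farnesylated HSP40 of the cytosol, was the lowest on the withdrawal array, with levels of 14.67 in green and 14.22 in red (-0.45), and 14.27 and 14.45 on the other (0.18). Dnajb6, a suppressor of protein aggregation, was the highest on the withdrawal array at 0.15 and lay at 0.08 on the other, with the software's ratio within its deposited error on both. Dnajb2, a neuron-enriched HSP40, was at 0.06 and at -0.19, the lowest on the array labelled Bcl-2. Dnaja2, another cytosolic HSP40, was the highest there at 0.24. Dnajb4 was at -0.27 and -0.03, and Dnajc7, which also binds HSP90, at -0.03 and -0.13. The software's ratio put Dnajb4 at 0.38 on the array labelled Bcl-2.

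The median of the mitochondrial chaperones (-0.27) lay near that of all members (-0.30) on the withdrawal array. Hspd1 (HSP60) and Hspe1 (HSP10), the partners of the mitochondrial folding chamber, were at -0.32 and -0.27 on the withdrawal array and at 0.35 and 0.28 on the other. Their log2 levels on the withdrawal array were 15.32 in green and 15.00 in red for Hspd1, and 15.55 and 15.28 for Hspe1. Hspd1 and Hspe1, whose promoter windows overlap, had like ratios on each array. On the withdrawal array both also lay near the median of all members (-0.30), and the part of the shared promoter was not tested. Trap1, the mitochondrial HSP90, was below 0 on both, at -0.12 and -0.26, and had the lowest sum of its ratios (-0.38) of the 43 members on both arrays. The family's median of -0.27 on the withdrawal array became 0.17 without loess, where all genes were also at 0.17.

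CCT subunits shared 1 sign on each array. All 7 lay below 0 on the withdrawal array, between -0.59 and -0.31 with a median of -0.54, and all 7 above 0 on the array labelled Bcl-2, between 0.15 and 0.67 with a median of 0.41. Cct2 was the lowest, with log2 levels of 13.21 in green and 12.62 in red (-0.59, 1.51-fold lower), then 12.58 and 12.99 on the other array (0.41). Cct8 was the highest on the array labelled Bcl-2, with 10.78 in green and 11.45 in red (0.67, 1.59-fold), after 11.36 and 10.94 on the withdrawal array (-0.42). In both genes the green channels, labelled alike, differed by about as much as green and red did. Cct3 was nearest 0 on the withdrawal array (-0.31) and Cct7 on the other (0.15). Tcp1, the subunit that gives the complex its other name, was at -0.56 and 0.45, with both of its probes on the same side of 0 on each array. Without loess the CCT median on the withdrawal array was -0.16, with Cct3 at 0.14, and on the other array 0.48. The median of the small heat shock genes lay 1.05 above that of CCT on the withdrawal array and below it by a like amount on the other, the widest gap between the 9 families on the first array.

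**Figure D3:**
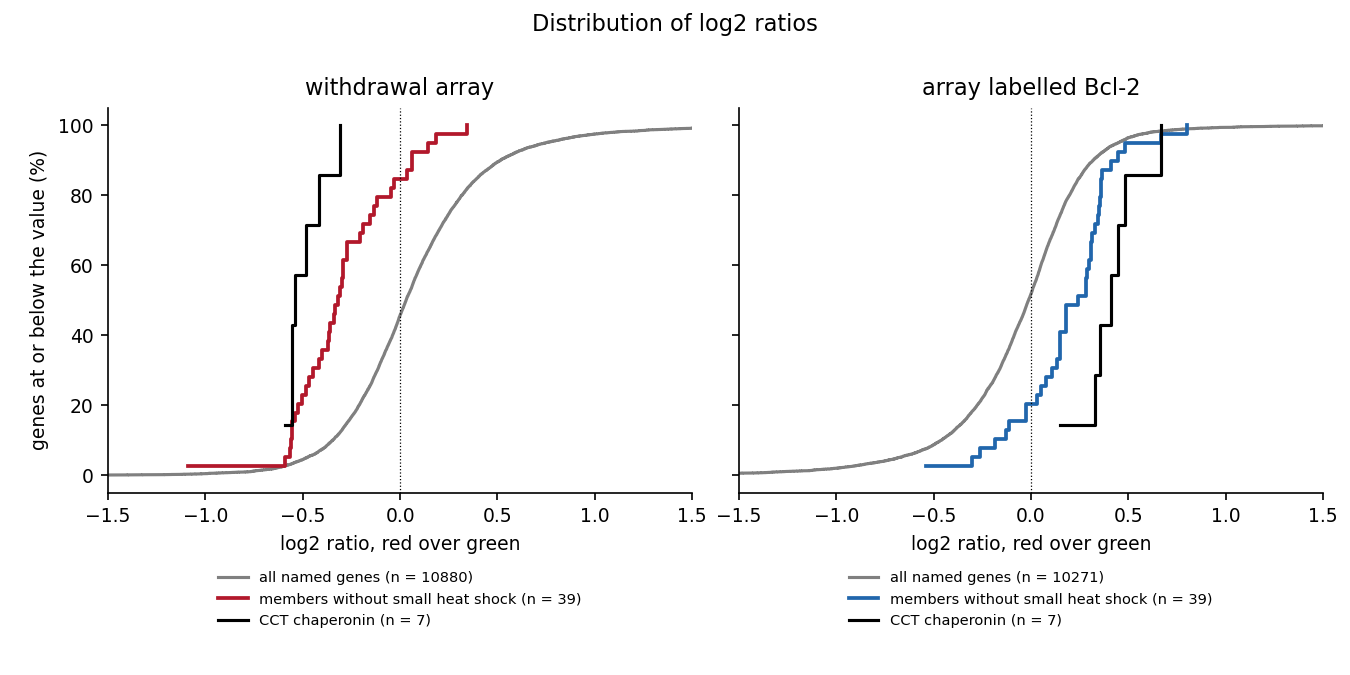
Share of genes at or below each log2 ratio of red over green (steps, in percent) for all named genes (grey), the 39 members that are not small heat shock genes (coloured) and the 7 CCT subunits (black), on the withdrawal array (left) and the array labelled Bcl-2 (right). The members lie left of all genes on the first array, with a median of -0.32 and 33 of 39 below 0, and right of them on the second, with a median of 0.24 and 31 of 39 above 0, while without loess their withdrawal median is -0.05.

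Both heat shock factors lay below 0 on the withdrawal array. Hsf1, the master regulator of the heat shock response, had log2 levels of 11.23 in green and 10.70 in red (-0.53), then 10.74 and 11.10 on the other array (0.36). Hsf2, a partner of Hsf1 active in development, was at -0.16 and 0.37. Its probes disagreed on the withdrawal array, at 0.04 and -0.35, so its sign there depends on the probe.

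BAG proteins release clients from HSP70, and their signs differed. Bag2, which also inhibits the ubiquitin ligase encoded by Stub1, had log2 levels of 10.07 (green) and 8.99 (red) on the withdrawal array, and of 9.09 and 9.89 on the array labelled Bcl-2. Green of the first array and red of the second were the high channels, the reverse of Cryab. Both Bag2 probes lay on 1 side, at -1.26 and -0.91 on the withdrawal array (gene value -1.09, 2.12-fold lower) and at 0.93 and 0.68 on the other (0.80, 1.74-fold higher). The software's deposited log2 ratios were -1.47 ± 0.25 and 1.19 ± 0.24, and without loess the withdrawal value was -0.89. Bag3, the stress-inducible partner of Hspb8 in selective autophagy, had the opposite sign, at 0.19 and -0.54. Its levels were 10.62 in green and 10.80 in red, then 10.95 and 10.41. This probe was spotted 10 times, with a spot SD of 0.05 on the withdrawal array and 0.04 on the second. The deposited error of the software's log2 ratio was 0.20 on the withdrawal array, against a ratio of 0.15, so the first value lies within that error. Bag1 was at -0.19 and 0.35, and Hspbp1, an exchange factor of HSP70, at -0.37 and 0.15.

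Cochaperones of HSP90 and HSP70 had a median of -0.34 on the withdrawal array, with 8 of 9 below 0, and of 0.18 on the other, with 7 of 9 above 0. Without loess the first became -0.06. Ahsa1, which stimulates the ATPase of HSP90, was the lowest on the withdrawal array, with log2 levels of 14.10 in green and 13.54 in red (-0.56), then 13.59 and 13.87 (0.28). Fkbp4, an immunophilin of steroid receptor complexes, was the highest on the array labelled Bcl-2, with 11.97 in green and 12.33 in red (0.36), after 12.36 and 11.96 on the withdrawal array (-0.40). Stub1, the ubiquitin ligase CHIP, was level, at 14.98 and 15.02, then 14.99 and 14.96, which made it the highest of the family on the withdrawal array (0.04). The lowest on the array labelled Bcl-2 was St13, which holds HSP70 in its client-bound state, at -0.11. On both arrays the software's ratios of Stub1 and St13, taken per gene, lay within their deposited error. The brighter St13 probe passed its own error on the withdrawal array (-0.26 against 0.21). Chordc1, Stip1, Fkbp5, Cdc37 and Ptges3 lay between -0.50 and -0.20 on the withdrawal array and between 0.11 and 0.31 on the other.

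The 7 members whose promoters hold the stricter heat shock element lay below 0 on the withdrawal array, as did 84.6% of the members that are not small heat shock genes and 45.7% of all genes, and Hspd1 and Hspe1 share the same element. Their log2 ratios ran from -0.54 (Cct4) to -0.27 (Hspe1), and on the array labelled Bcl-2, where 79.5% of those members and 48.2% of all genes lay above 0, from 0.14 (Hspa8) to 0.48 (Cct4). Cct4 is a subunit of the chaperonin, and its element lies after the start. Without loess, Hspa8, Hspd1 and Hspe1 moved above 0 on the withdrawal array.

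Other genes of the chaperone network came from 4 lists, and 0 of their measured members were past 2-fold on either array. Few genes of any kind passed that limit on the withdrawal array, 2.41% upward in red and 0.469% downward. On the array labelled Bcl-2 the shares over all genes were 0.555% upward and 2.00% downward. In lists of this size, a count of 0 therefore does not set them apart from all genes. Prefoldin, CCT and tubulin cofactors had a median of -0.22 on the withdrawal array, with 9 of 13 measured below 0, and 0.09 on the other. Further cochaperones were at -0.12, with 16 of 22 below 0, and 0.05. Further HSP40 genes (25 measured of 30) were at -0.03 and 0.01, and further small heat shock and HSP70 genes at -0.00 (5 measured of 12) and 0.07 (3 measured). The median of the CCT members lay further from 0 than each of these list medians on both arrays. The list of prefoldin, CCT and tubulin cofactors itself holds the CCT genes Cct6a (-0.51 and 0.28) and Cct6b (-0.33, measured on the withdrawal array alone).

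Markers of astrocytes and contractile cells had the signs of Cryab and Hspb1 on each array, as did most neuronal and fibroblast markers. These lists were chosen with earlier results of these data known. Of the precursor markers, Fabp7 (1.26 and -0.91), Prom1 (0.55 and -0.56), Hes1 (0.52 and -0.69), Nes and Pax6 also lay above 0, then below 0. Vim (-0.49 and 0.56) lay the other way. Sox2 (-0.12 and -0.27) was below 0 on both arrays and Hes5 (0.61 and 0.09) above 0 on both. Msi1 was measured on the withdrawal array alone (-0.05). All 12 measured of 13 astrocyte markers were above 0 on the withdrawal array (median 1.05, 6 at least 2-fold higher) and all 12 below 0 on the other (-0.97, 5 at least 2-fold lower). Over all genes, 54.3% lay above 0 on the first array and 51.8% below 0 on the second. The shares of all genes at least 2-fold higher on the first and lower on the second were 2.41% and 2.00%. The summed signals of the astrocyte markers on the first array were 19978 in green and 52066 in red, and 51490 and 21379 on the second. The defining marker Gfap had no kept probe on either array, while Apoe (3.54 and -3.20), Ndrg2 (2.71 and -1.92) and Aldh1l1 (2.61 and -2.02) were the furthest from 0. All 10 measured of 12 contractile markers likewise lay above 0 and then below 0 (0.40 and -0.66), and Tagln, Acta2, Myl9 and Tpm2 were at least 2-fold higher, then lower, with Tagln at 3.23 and -3.02. Their summed signals were 5610 in green and 16675 in red, then 17190 and 5174, and Cnn1 and Lmod1 were not measured. The part of these cell types in the values of Cryab, Hspb1 and Hspb6 was not tested.

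Neuronal markers (8 measured of 12) had medians of 0.55 and -0.41, with all 8 above 0 on the withdrawal array and 6 below 0 on the other. Their summed signals were 13158, 20672, 19747 and 13714 in green and red of the withdrawal array and then of the other. Tubb3 and Ncam1 were at least 2-fold higher on the first array and Ncam1 at least 2-fold lower on the second, against 2.41% and 2.00% of all genes. Fibroblast markers were at 0.20 (8 of 9 above 0) and -0.33 (6 of 8 below 0), with sums of 7078, 10352, 9818 and 5020. Of these, Col1a1, Col1a2 and Col3a1 were at least 2-fold lower on the array labelled Bcl-2. Oligodendrocyte markers were at 0.12 and -0.12 (10 of 12 measured), microglia and blood at -0.05 and 0.09 (6 of 10), and endothelium at 0.25 (3 of 10) and -0.07 (2 of 10). Their part in the results was not tested either.

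Across the 4 channels, green of the array labelled Bcl-2 was nearer to red than to green of the withdrawal array for 37 of the 43 members measured on both (86.05%), although the greens carry the same label. Over all genes this held for 7475 of 10187 (73.4%). Red of the array labelled Bcl-2 was nearer to green of the withdrawal array for 33 members (76.7%), against 7056 genes (69.3%). Over the members, the SD of the difference between the green channels was 0.53, and that between green of the array labelled Bcl-2 and red of the withdrawal array 0.094. The arrays share their labelled control, and which sample stood in which channel is not settled. The opposite signs of the families above are therefore values side by side and not separate findings.

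**Figure D4:**
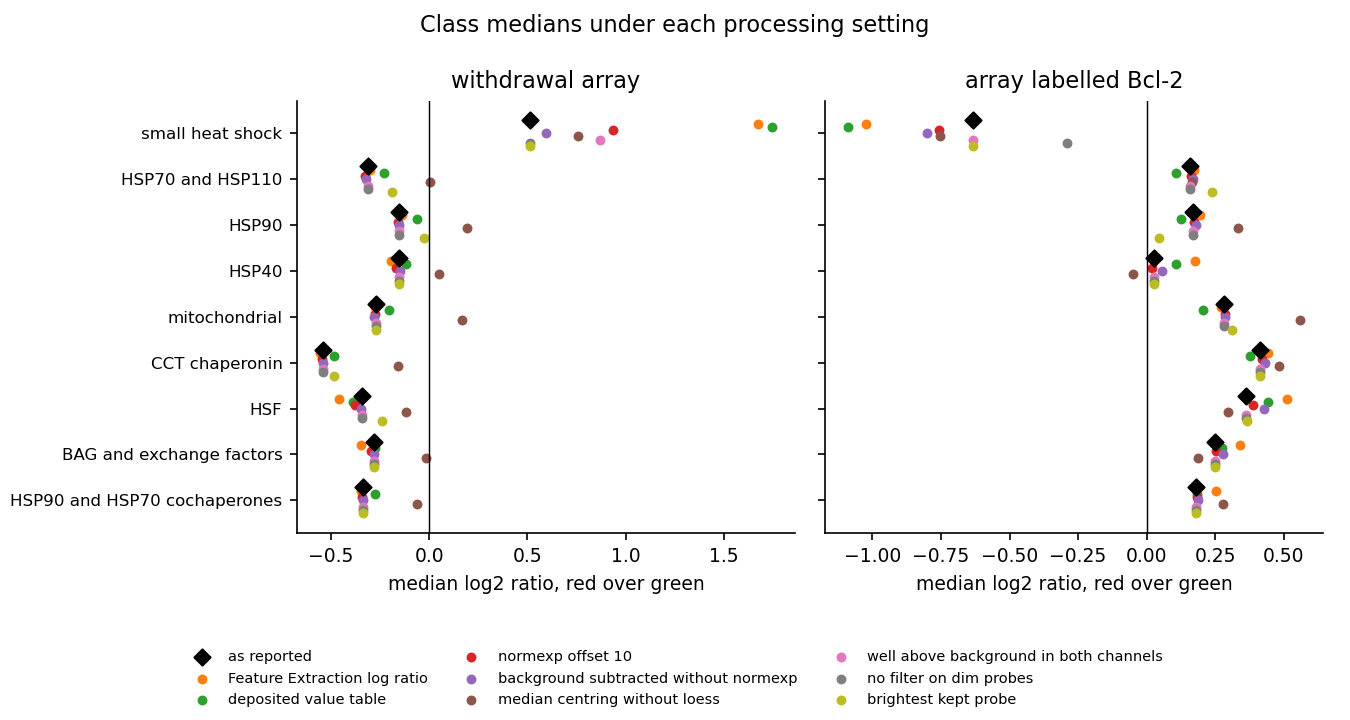
Median log2 ratio of red over green (x axis) of each family on the withdrawal array (left) and the array labelled Bcl-2 (right), as reported (black diamonds) and under 8 other settings (coloured points). The small heat shock median stays right of 0 on the first array and left of it on the second, CCT stays left and then right, and without loess (brown) the withdrawal medians of HSP70, HSP90, HSP40 and mitochondrial genes cross 0.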

How the data were processed

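The members and gene lists were chosen with earlier results of these data known. Total RNA was amplified and labelled with Cy3 or Cy5, per the labels' protocols, and read on 2 arrays. Per the file headers, the deposited scanner output holds for every spot and channel the foreground and background intensity as pixel medians before normalization. It also holds the software's deposited log10 ratio (red over green) with an error and a deposited p-value from spot noise, the last not used here, and flags for outlier, saturated and well above background spots. Feature Extraction 11.5.1.1, protocol GE2_1105_Oct12, design 028282 and build rn4 stand in the headers, and version 8.5.1.1 in the submitters' processing notes. The value table deposited by the authors is a linear ratio of 29782 probes (medians 0.932 and 0.944), and no source used here states how it was scaled, centred or directed. Set against the scanner signals of 28395 probes, and allowing a constant and 0.05 on the log2 scale, column 1 matched the withdrawal array (red over green) for 100%. Column 2 matched its own array for 7.06%, but the product of the 2 arrays' ratios for 100%, so column 2 over column 1 stood for that array.

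Background was corrected by normexp (offset 50), followed by loess within each array in limma 3.58.1 (R 4.3.3), control spots having weight 0. The steps were tested on simulated data in which only brighter probes were changed, each by at least 2-fold. That test did not cover smaller changes or changes of dim probes. Levels per channel were scaled by Aquantile. Of 44254 spots, 1377 were controls, 609 and 658 were outliers and left out, with 0 saturated. Values of spots with the same probe were averaged, with a median spot SD of 0.040 (1214 probes) and 0.039 (1179), and probes well above background in 1 channel or more were kept (20362 and 19061). Unversioned accessions found a name in RefSeq's GRCr8 gene table for 60.4% of 30367 probes. A gene's value is the median of its kept probes (10880 and 10271 genes). Of the members, 10 had 2 or more kept probes on each array and the others rest on 1. The software's ratio passed its deposited error for 34 members on each array. The share of all genes past that error was not counted, so this count does not set the members apart. That error covers spot noise alone. The number of arrays limits the precision, and no test was possible with 1 array per comparison. Members past 1.5-fold and the highest and lowest of each family are given in full. Genes that are no members are given only from the lists and past 2-fold, apart from Bcl2, Cct6a, Cct6b and the precursor markers. There were 8 alternatives: the software's log ratio, the value table, an offset of 10, subtraction without normexp, median centring without loess, probes well above background in both channels, no filter, and the brightest probe of a gene. Counting used Python 3.11.15, numpy 2.4.6 and pandas 2.3.3.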

Additional observations from a re-analysis of the deposited data

Results flagged for a closer look

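The ratios of 3 members had opposite signs on the arrays and passed 1.5-fold on each. Over all gene spots the ratios of the arrays also ran against each other (r = -0.67). The share of all genes that meet the same rule was not counted, so opposite signs do not set these members apart. The difference in log2 ratio, the array labelled Bcl-2 minus the withdrawal array, was -4.69 for Cryab, -2.20 for Hspb1 and 1.89 for Bag2. This difference was not tested, as each side is 1 array, and both sides share the labelled control.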

How the results depend on the processing

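No member past 1.5-fold changed sign under any of the 8 alternatives. On the withdrawal array without loess, 0 members were at least 2-fold lower (Bag2 at -0.89) and the median was 0.0061. On the array labelled Bcl-2, 1 member was at least 2-fold higher with the software's ratio and 1 with the value table (Bag2 at 1.19 and 1.12), and 2 were at least 2-fold lower (Cryab and Hspb1) with either of these, with an offset of 10, with subtraction and without loess. The median there was 0.25 with the software's ratio and 0.26 without loess. The gap between the small heat shock and CCT medians kept its sign throughout. On the withdrawal array it was 2.23 with the software's ratio, 2.23 with the value table, 1.48 with an offset of 10, 1.13 with subtraction, 0.92 without loess, 1.41 with probes above background in both channels and 0.998 with the brightest probe. On the other array it was -1.47 with the software's ratio, -1.47 with the value table, -1.18, -1.23 and -1.23 in the next 3 settings, and -0.70 with no filter, which lets Hspb8 in. On the withdrawal array Hspb1 was at 2.01 with the software's ratio and 2.08 with the value table, and Hspb8 at 1.68 and 1.75, which made 3 members at least 2-fold higher, while without loess Hspb8 was at -0.07. The cause of the other differences was not tested. Leaving out a replicate was not possible with 1 array per group. No paired analysis was possible because each comparison has 1 array.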
